A study of Mus musculus with 6 samples.

Results

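The sirtuins are the NAD-dependent deacylases of mammals. The family was examined as all 7 mouse genes, Sirt1 to Sirt7, of 35974 gene names in the deposited annotation. Its members were found as the assembled transcripts to which the deposited annotation gives one of these names: 41 transcripts of 114412, of which 37 had a count in any library. Counts were summed per gene, and each transcript was also expressed as its share of the counts of its gene. RNA was measured in embryonic mouse ovaries (strain C57Bl6j) at E15.5 (E, embryonic day), in 3 control pools and 3 pools from females exposed to panobinostat (PB), a hydroxamate inhibitor of the zinc-dependent histone deacetylases. The labels give exposure of the pregnant mothers from E6.5 to E15.5 at 5 mg/kg per day, while the study's methods describe dosing on alternate days. Controls received the vehicle, dimethyl sulphoxide in water. The extraction protocol gives 4 ovaries per pool and the series description 6 to 8, and the methods state a larger minimum, so the pool size is uncertain. The labels and the study's methods call the pools biological replicates, but do not say for these libraries which pools came from separate litters, so p-values measure the spread between these pools.

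Sirtuins remove acetyl or longer acyl groups from lysines and consume a molecule of NAD+ at each turn, which ties their activity to NAD+ supply and sets them apart from the zinc-dependent deacetylases. SIRT1, SIRT6 and SIRT7 act mainly in the nucleus, SIRT2 mainly in the cytoplasm, and SIRT3, SIRT4 and SIRT5 mainly in mitochondria. In the ovary the family is best known for roles in oocyte reserve, in spindle formation and in defence against oxidative damage.

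The 6 libraries held 97165644 to 125985399 counts, of which 18349 to 24643 belonged to sirtuins, or 177 to 205 CPM (counts per 1000000 of the library; all other CPM are TMM-scaled). Markers of germ cells (6 of 6 at a mean of 1 CPM or more) and of pregranulosa cells (6 of 6) were present in every pool. Summed pregranulosa markers ranged from 742 to 789 CPM in control pools and from 706 to 791 CPM in PB pools. Summed germ cell markers ranged from 508 to 698 CPM in controls and from 436 to 764 CPM in PB pools. Control 2 and PB 2 were the low pools of their groups. Dazl, Ddx4 and Sycp3 made up most of this sum, and its members did not move together: Sycp3 was at 111 to 118 CPM in controls and at 172, 81.2 and 184 CPM in PB 1, 2 and 3, while Dppa3 and Pou5f1 had log2 fold changes of −0.52 ± 0.21 and −0.58 ± 0.20 (SE). These and Runx1 of the pregranulosa list (0.15 ± 0.06), Dmrt1 of the Sertoli list (−0.52 ± 0.20) and Hba-a2 of the red blood cell list (−0.77 ± 0.28) were the marker genes with an unadjusted p under 0.05, each with an edgeR adjusted p of 0.888. They were 2 of 6 germ cell genes and 1 of 6 in each of the other 3 lists named, against 4.46% of all genes tested. The remaining marker lists had none. Dmrt1 was at 16.9 and 16.6 CPM in controls 1 and 3 and at 9.41 to 10.5 CPM elsewhere. Dppa3 and Pou5f1 were also highest in those controls. Sox9 of the Sertoli list was highest in PB 2 (14.7 CPM), followed by controls 3 and 1 (14.1 and 12.5 CPM), and was at 10.3 to 11.2 CPM elsewhere. Which cells carried Dmrt1 was not tested. Markers of red blood cells (6 of 6) summed to 14795 to 31759 CPM in controls and 18138 to 19969 CPM in PB pools. Sertoli markers (5 of 6) summed to 30.2 to 38.8 and 29.2 to 33.7 CPM, mesonephros markers (4 of 4) to 148 to 154 and 141 to 159 CPM, endothelial markers (4 of 4) to 290 to 321 and 282 to 298 CPM, and macrophage markers (4 of 4) to 38.1 to 41.6 and 34.7 to 40.9 CPM. Emx2 made up most of the mesonephros sum, at 124 to 138 CPM over the 6 pools, against 10.6 to 14.5 CPM for Pax8. Fetal Leydig markers (3 of 4) summed to 49.4 to 52.6 CPM in controls. In PB 1 they summed to 22.4 CPM, against up to 52.9 CPM in the other PB pools. Hsd3b1 made up most of this sum, at 14.8 CPM in PB 1 and 39.0 to 45.6 CPM in every other pool. In PB 1, Cyp11a1 (3.69 CPM) and Insl3 (0.595 CPM) were above every control. Cyp17a1 (3.24 CPM) was below controls of 3.42 to 3.83 CPM. Adrenal cortex markers (0 of 3) stayed at or below 0.988 CPM in sum. In whole ovaries, fewer cells of a type and less RNA per cell cannot be told apart.

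Sirt3 is described first at the sequence level, because its transcripts differ in their first exon and in the start of exon 2, and the pools differed in the shares given to them. The gene lies on chromosome 7 at 140863663 to 140882309 on the minus strand (mm10). NM_022433.2 starts at 140882309 and joins its own first exon (140882158 to 140882309) to exon 2. The other 4 Sirt3 transcripts have a first exon that ends at 140881763, and NM_001127351.1 and NM_001177804.1 among them start at 140881869, which is 440 bases downstream. The minor XM_006536223.3 and XM_006536222.3 start at 140881859 and at 140882151. RefSeq (GRCm38.p6, whose chromosome coordinates are those of mm10) lists the starts at 140882309 and 140881869. The windows from 250 bases before to 50 bases after each start are shown 5′ to 3′ on the minus strand, with GC boxes (GGGCGG on either strand) in capitals, since they surround the starts of the 3 most counted Sirt3 transcripts.
Upstream start, chr7:140882260-140882559: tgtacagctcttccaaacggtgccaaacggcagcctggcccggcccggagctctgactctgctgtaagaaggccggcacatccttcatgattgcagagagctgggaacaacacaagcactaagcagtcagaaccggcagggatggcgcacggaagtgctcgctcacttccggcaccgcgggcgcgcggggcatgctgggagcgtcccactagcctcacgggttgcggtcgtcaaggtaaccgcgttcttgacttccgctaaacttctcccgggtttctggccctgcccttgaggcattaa
Downstream start, chr7:140881820-140882119: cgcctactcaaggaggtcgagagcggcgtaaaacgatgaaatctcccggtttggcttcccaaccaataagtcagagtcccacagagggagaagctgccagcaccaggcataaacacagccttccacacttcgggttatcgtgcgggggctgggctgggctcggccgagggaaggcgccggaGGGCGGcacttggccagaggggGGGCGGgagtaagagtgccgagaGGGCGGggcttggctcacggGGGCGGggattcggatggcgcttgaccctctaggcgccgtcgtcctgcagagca
The downstream window held 4 GC boxes and the upstream window 0. Of all 32851 RefSeq windows of this length, 35.7% held at least 1, and among the 9 sirtuin windows 6 did. A CCAAT box (CCAAT on either strand) was found 1 time in the downstream window and 0 times in the upstream window, against 37.4% of all windows holding one. These matches describe letters only.

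The second Sirt3 difference is at the start of exon 2, which begins at 140878145 in NM_022433.2, NM_001127351.1 and XM_006536223.3 and at 140878137, 8 bases further on, in NM_001177804.1 and XM_006536222.3. The junction is shown from the GENCODE M21 transcripts with the same exon boundaries (GRCm38), the 8 bases in capitals.
Exon 2 with the 8 bases: gggtccgggagTGTTACAGgtgggagaagg
Exon 2 without the 8 bases: tgtggggtccgggaggtgggagaaggccca
With the 8 bases, the annotated coding sequence starts inside exon 2 at 140878003. Without them it starts in exon 1 at 140881859, 77 codons further upstream in the same frame. That GENCODE model is annotated as incomplete at its 3′ end, and so has 258 codons against 257 of the form with the 8 bases. GENCODE's own table of RefSeq matches assigns NM_001177804.1 to the form with the 8 bases, whereas the deposited exon coordinates, which are followed here, lack them. The amino end of SIRT3 is known as the part that carries the mitochondrial targeting signal.

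No sirtuin gene was called different between PB-exposed and control ovaries. Of the 7 genes, 0 were called by edgeR's quasi-likelihood test (fold change of at least 2 and Benjamini-Hochberg FDR of at most 0.05), against 3 of all 19435 genes tested, 0.0154%. At that FDR with no fold threshold the count was also 0 of 7, against 5 of all genes, 0.0257%. At an unadjusted p under 0.05, edgeR found 0 of the 7 against 4.46% of all genes, and DESeq2 also found 0 with 0 called. In 0 of the 7 genes did the control pools lie apart from the PB pools, against 10.7% of all genes tested. The estimate was higher in PB for 5 genes and lower for 2, the median log2 fold change of the 7 was 0.06 and that of all genes was 0.00197. All 7 genes had a 95% interval inside a 1.5-fold change in either direction.

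Among the nuclear sirtuins, Sirt1 (chromosome 10, 63319005 to 63339035, minus strand) was the most counted. SIRT1 deacetylates histones and transcription factors such as p53 and the FOXO proteins. Its level was 76.1, 69.9 and 75.7 CPM in control pools 1, 2 and 3 and 79.4, 63.3 and 88.3 CPM in PB pools 1, 2 and 3. The PB pools held both the lowest and the highest value and enclosed the controls. The log2 fold change was 0.06 ± 0.12 (SE; 95% interval −0.23 to 0.35; edgeR adjusted p = 0.934), and its sign turned without PB 3 (−0.05). The order of the 6 pools by Sirt1 CPM, from PB 2, control 2, control 3, control 1 and PB 1 to PB 3, was also their order by the germ cell marker sum, which was 436, 508, 691, 698, 721 and 764 CPM. Of all genes tested, 467 of 19435 (2.4%) ranked the pools in this order. The part of germ cell content in the Sirt1 values was not tested.

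Sirt6 (chromosome 10, 81621786 to 81627797, minus strand) encodes a deacylase of histone H3 that acts in DNA repair and at telomeres. It measured 18.1, 17.5 and 18.1 CPM in the control pools and 18.7, 14.5 and 15.8 CPM in PB 1, 2 and 3. PB 1 was above every control and PB 2 and PB 3 were below them. The log2 fold change of −0.13 ± 0.10 (SE) was the lowest of the family, with an interval of −0.37 to 0.11 and an edgeR adjusted p of 0.888. It was −0.25 without PB 1 and −0.05 without PB 2. Sirt7 (chromosome 11, 120618372 to 120625008, minus strand), whose nucleolar product acts on ribosomal RNA transcription, measured 22.3, 24.3 and 21.7 CPM in controls and 23.9, 19.6 and 25.1 CPM in PB pools. PB 2 was again the lowest pool and PB 3 the highest, and the log2 fold change was 0.01 ± 0.11 (SE; edgeR adjusted p = 0.994), negative without control 1, control 3, PB 1 or PB 3 (−0.07 without PB 3).

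Sirt2 (chromosome 7, 28766662 to 28788665, plus strand), the cytoplasmic member, deacetylates alpha-tubulin. Its CPM was 54.7, 58.6 and 54.5 in controls and 57.4, 58.5 and 60.01 in PB pools. Control 2 lay inside the range of the PB pools while controls 1 and 3 lay below it. The log2 fold change was 0.07 ± 0.05 (SE; interval −0.05 to 0.19), and its unadjusted p of 0.229 was the smallest of the family in edgeR's test, with an adjusted p of 0.888.

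The mitochondrial members gave no call either. Sirt3, the main deacetylase of the mitochondrial matrix, measured 14.7, 15.8 and 16.2 CPM in controls and 15.2, 15.4 and 15.04 CPM in PB pools. The 3 PB pools fell within the control range. Its gene sum was even across pools (log2 fold change −0.03 ± 0.07, SE; edgeR adjusted p = 0.933), unlike its transcripts. Sirt5 (chromosome 13, 43365434 to 43395203, plus strand), which removes succinyl, malonyl and glutaryl groups, measured 5.51, 5.21 and 5.04 CPM in controls and 5.97, 6.41 and 4.89 CPM in PB pools. Its log2 fold change of 0.13 ± 0.13 (SE) was the highest of the family, with PB 1 and PB 2 above the controls and PB 3 below them (interval −0.17 to 0.43; edgeR adjusted p = 0.888). It was 0.05 without PB 2 and 0.24 without PB 3. Sirt4 (chromosome 5, 115478006 to 115490155, minus strand), known for regulating glutamate dehydrogenase, was the least counted at 2.53, 3.91 and 3.64 CPM in controls and 3.49, 4.15 and 2.86 CPM in PB pools. The groups overlapped, control 1 was the lowest pool, and the interval was the widest of the family (log2 fold change 0.06 ± 0.22, SE; −0.46 to 0.57; edgeR adjusted p = 0.972; −0.11 without control 1 and −0.09 without PB 2).

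**Figure D1:**
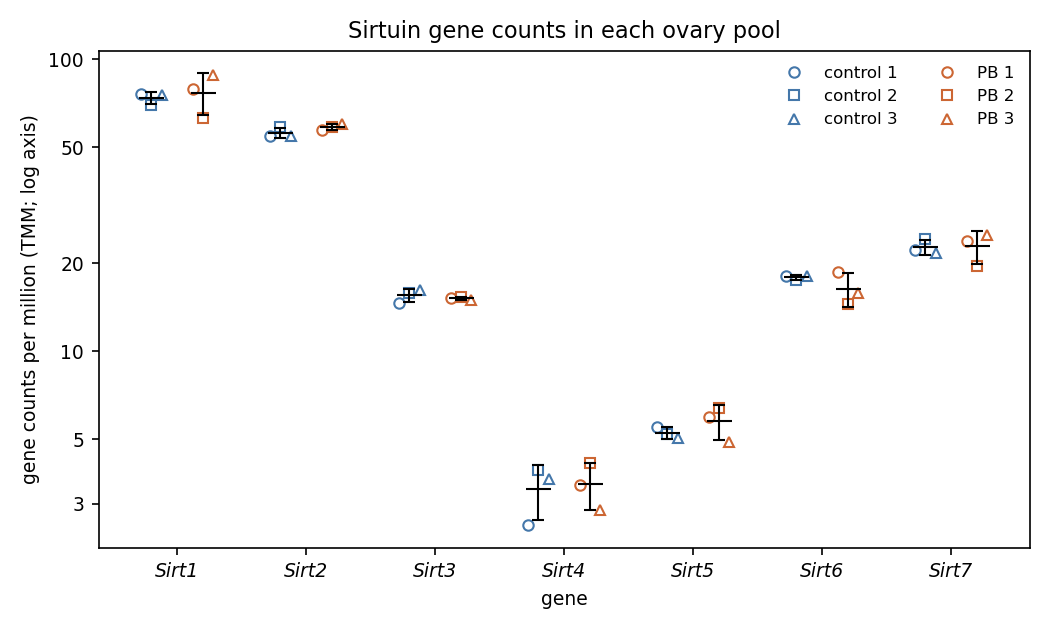
CPM of each sirtuin gene (log axis) in 3 control and 3 PB pools; points are pools, horizontal marks the mean and bars the SD (n = 3). In every gene the 2 sets of pools overlap, and Sirt1 in PB spans 63.3 to 88.3 CPM around controls of 69.9 to 76.1 CPM.

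**Figure D2:**
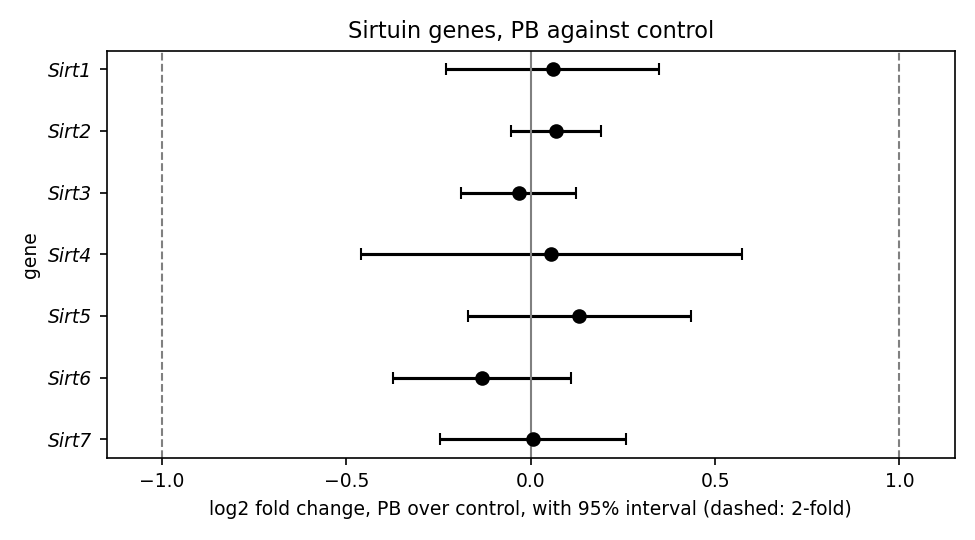
Log2 fold change of each sirtuin gene sum, PB over control, from edgeR (n = 3 pools per group), with its 95% interval; dashed lines mark a 2-fold change. All 7 intervals include 0, and the widest, that of Sirt4, reaches from −0.46 to 0.57.

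Levels can be compared between genes only per length, so counts were divided by transcript length and scaled to transcripts per 1000000 (TPM). Sirt2 was highest at 44.0 to 52.6 TPM over the 6 pools, above 86.8% of tested genes, followed by Sirt1 at 24.4 to 36.3 TPM, Sirt7 at 17.0 to 23.4 TPM, Sirt3 at 15.1 to 17.2 TPM, Sirt6 at 13.1 to 17.9 TPM, Sirt5 at 4.24 to 5.77 TPM and Sirt4 at 1.96 to 3.94 TPM. Sirt1 held more counts than Sirt2 but less RNA per length in all 6 pools, by 1.45-fold to 1.97-fold. Apart from Sirt3 and Sirt6, each neighbour in this order differed in the same direction in all 6 pools (exact paired permutation test, two-sided, p = 0.0312, the smallest 6 pools can give, 0.0375 adjusted over 6 pairs). The pairs were set by ranking these same values, so this p shows only how steadily a pair kept its order over the pools. It does not cover error in transcript lengths or annotation. Sirt3 was above Sirt6 in 4 of 6 pools, by 1.06-fold on average (exact p = 0.219), so these neighbours did not differ beyond their spread. With RefSeq transcripts alone, Sirt4 (3.43 to 6.93 TPM) came above Sirt5 (0.587 to 1.74 TPM), since most Sirt5 counts sat on an assembled transcript. This reversed pair also kept its order in all 6 pools, with the same exact p of 0.0312. The total then covers fewer transcripts, so TPM rise without more counts, as for Sirt2 (mean 82.9 against 47.5 TPM). They are not comparable with the TPM given above. Together the sirtuins made up 125 to 152 TPM, against 364 to 469 TPM for the 11 classical deacetylase genes Hdac1 to Hdac11.

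**Figure D3:**
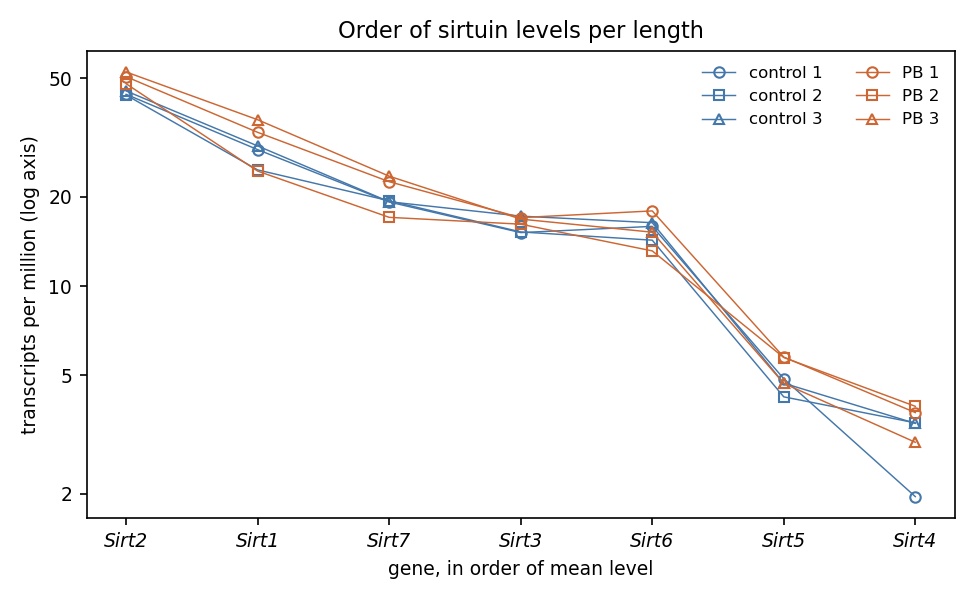
TPM (log axis) of the sirtuin genes in order of their mean level; each line is 1 pool. The order holds in every pool but for Sirt3 and Sirt6, whose lines cross.

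TPM carry no correction for composition, and their median over all tested genes was 0.11 higher in PB pools on the log2 scale, so they were not used between groups. On that scale the pools of Sirt2 did not overlap, at 44.0 to 45.4 TPM in controls and 48.0 to 52.6 TPM in PB pools, a log2 ratio of means of 0.18 that includes the shift. Nor did they on CPM without TMM scaling, at 51.9 to 54.2 in controls and 56.6 to 58.1 in PB pools. The share of all genes whose pools lie apart was not counted on these scales, so whether Sirt2 stood out there was not tested.

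Transcripts gave a less even picture than gene sums. Of the 41 sirtuin transcripts, 25 passed the filter on low counts and 16 did not. Of the 25, 0 were called by edgeR's quasi-likelihood test, against 17 of 51227 transcripts, 0.0332%, and 0 had an unadjusted p under 0.05, against 3.56% of all transcripts. The smallest p was that of XM_017321127.1 of Sirt4, just above that threshold. DESeq2 gave no p to NM_001127351.1 of Sirt3 and so could not call it. DESeq2 gave a p to 36 sirtuin transcripts and called 0 of them. It gave 3 of the 36 an unadjusted p under 0.05 (XM_017321127.1, XM_006513863.3 of Sirt6 and XM_017312214.1 of Sirt2, the last 2 below edgeR's filter), against 7.17% of all transcripts, with a smallest adjusted p of 0.209. Transcript values varied far more between pools than gene sums, with a biological coefficient of variation of 98.4% against 20.9%, and 11 of the 25 standard errors were above 1 on the log2 scale. In the test of transcript usage (edgeR's diffSpliceDGE, Simes p per gene), 0 of the 7 genes passed an FDR of 0.05, against 1.1% of 10360 genes, and each had an adjusted p of 1.00.

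In Sirt3, more of the deposited counts sat on the transcript with the upstream start in PB 1 and PB 3 than in the other 4 pools. The share of NM_022433.2 was 29.1%, 20.1% and 35.3% in control pools 1, 2 and 3 and 77.2%, 21.4% and 77.8% in PB 1, 2 and 3. PB 2 lay within the control range, so the groups overlapped. The 95% Wilson intervals, which cover counting error only, were 74.99% to 79.2% in PB 1 and 19.4% to 23.5% in PB 2. The Sirt3 transcripts share inner exons, and the part of the deposited assignment of reads between them was not tested. The group means were 28.2% ± 7.65 and 58.8% ± 32.4 (SD, n = 3), and their difference of 30.6 points had an exact permutation p of 0.3 (two-sided; the smallest possible is 0.1; 0.933 adjusted over the 7 genes). Without PB 2, left out after its share was seen, the difference was 49.3 points. PB 2 was also the pool with the lowest germ cell marker sum, at 436 CPM, followed by control 2 at 508 CPM. Controls 1 and 3, at 698 and 691 CPM, had shares of 29.1% and 35.3%. PB 1 and PB 3, at 721 and 764 CPM, had shares of 77.2% and 77.8%. The part of germ cell content in this share was not tested.

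In PB 1 and PB 3 the 2 transcripts that start at 140881869 held smaller shares. NM_001127351.1 had 49.4%, 48.2% and 45.4% of Sirt3 counts in controls and 3.65%, 59.6% and 2.23% in PB pools. NM_001177804.1, the form without the 8 bases, had 14.0%, 31.4% and 19.2% in controls and 5.51%, 18.9% and 4.06% in PB pools. All transcripts of the downstream first exon together had 70.9%, 79.9% and 64.7% in controls and 22.8%, 78.6% and 22.2% in PB pools. In PB 1 and PB 3 this class was at its lowest, and PB 2 lay within the control range. The 2 transcripts that begin exon 2 without the 8 bases held 17.8%, 31.6% and 19.2% in controls and 11.02%, 19.01% and 7.72% in PB pools, with overlapping groups and an exact permutation p of 0.2 (smallest possible 0.1). The minor XM_006536223.3 had 3.75%, 0.108% and 0% in controls and 8.16%, 0% and 12.2% in PB pools, and XM_006536222.3 had 3.82%, 0.163% and 0% in controls and 5.51%, 0.127% and 3.66% in PB pools. As levels, NM_022433.2 had a log2 fold change of 1.03 ± 0.56, NM_001127351.1 of −1.14 ± 1.32 and NM_001177804.1 of −1.22 ± 0.74 (SE), and each had an edgeR adjusted p of 1.00. Without PB 2, singled out after its shares were seen, these were 1.42, −4.05 and −2.22, and 0 sirtuin transcripts were called. The unadjusted p in edgeR's test were then 0.00946, 0.000325 and 0.0148. They are no support for a group difference, since the pool left out was the PB pool that lay with the controls. With any other pool left out, the log2 fold changes were 0.77 to 1.25, −1.17 to −0.61 and −1.49 to −0.82. Their unadjusted p in edgeR's test were 0.14 or more. The Sirt3 share spanned 57.7 points over the 6 pools. Spreads this wide were not rare: 75.5% of 10360 genes had a smaller one, so the remainder were as wide or wider, and the median was 23.1 points.

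Sirt4 showed the opposite case, in which 1 control pool stood apart. NM_133760.1, the transcript that starts at 115484484, had 0%, 70.0% and 75.8% of Sirt4 counts in control pools 1, 2 and 3 and 79.8%, 77.4% and 84.6% in PB pools. Control 1 held 0 of 249 counts, which allows a share of up to 1.52% by its Wilson interval. The PB pools all lay above the controls, the only leading share of the 7 whose groups did not overlap, which was also true of 10.1% of genes. The difference of 32.0 points had the smallest exact permutation p the design allows, 0.1 (0.7 adjusted over 7 genes), and was 7.71 points without control 1. In control 1 the counts sat instead on XM_017321127.1, which starts 5′ of it at 115490155. That transcript had 77.1%, 1.54% and 12.2% in controls and 2.02%, 2.83% and 1.51% in PB pools. Its log2 fold change was −3.39 ± 1.33 (SE; edgeR adjusted p = 1.00), and −1.70 without control 1. Both transcripts share inner exons, and the part of the deposited assignment of reads between them was not tested. The Sirt4 share spanned 84.6 points over the pools, wider than in 90.5% of genes.

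**Figure D4:**
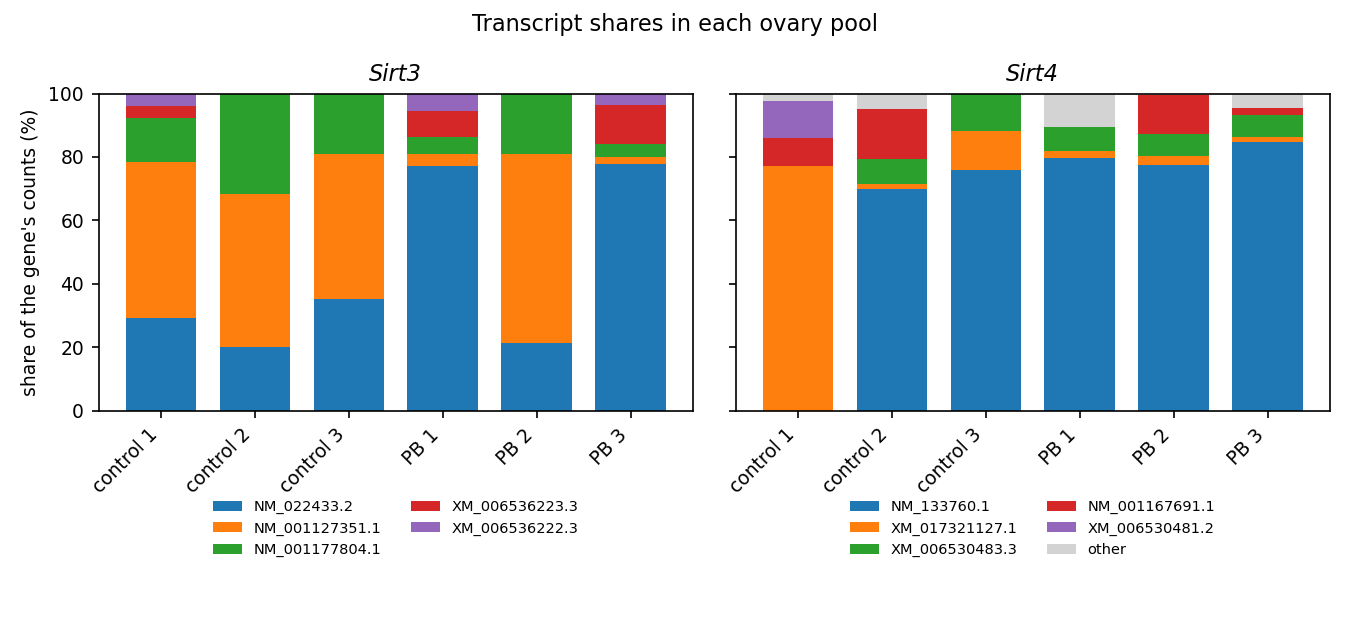
Share of each transcript (%) in the counts of Sirt3 (left) and Sirt4 (right) in each of the 6 pools; the 5 transcripts with the highest mean share are coloured and the rest of Sirt4 is grey. NM_022433.2 holds 77.2% and 77.8% of Sirt3 in PB 1 and PB 3 and at most 35.3% elsewhere, and NM_133760.1 of Sirt4 is at 0% in control 1.

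The other sirtuins kept 1 leading form in all pools. For Sirt1, NM_019812.3 held 88.4% to 95.1% of the counts. It differs from NM_001159589.2 by an exon of 117 bases (63336980 to 63337096), which is in frame: the annotated proteins have 737 and 698 residues in GENCODE M21. For Sirt2, NM_001122765.1 held 59.7% to 64.9% and NM_022432.4 held 34.0% to 39.6%. The latter adds an exon of 47 bases (28767632 to 28767678) and encodes 389 residues against 352. The share of NM_001122765.1 was 62.3% ± 2.56 in controls and 62.8% ± 0.293 in PB pools (SD, n = 3; exact permutation p = 0.7). For Sirt6, NM_181586.3 (334 residues) held 79.2% to 88.3% and NM_001163430.1 (294 residues) held 8.32% to 13.0%. For Sirt7, NM_153056.2 held 91.1% to 97.2%. For Sirt5, 81.1% to 91.1% of counts fell on MSTRG.4730.1, an assembled transcript with no RefSeq identifier. Its first exon (43365434 to 43365740) has 307 bases, where that of the annotated NM_178848.3 (43365535 to 43365544) has 10. NM_178848.3 held 0% to 12.8%. The exact permutation p of the leading share was 0.6 or more in each of these 5 genes. The log2 fold changes of these leading transcripts lay between −0.15 (NM_181586.3) and 0.14 (MSTRG.4730.1).

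The genes that supply and compete for NAD+ gave no call. Of the 16 genes of NAD synthesis and salvage, 14 were tested, with 0 called or at an unadjusted p under 0.05 by edgeR or DESeq2. Over all genes, edgeR called 0.0154% and put 4.46% at that p, and DESeq2 put 3.65% there. A count of 0 in lists of this size therefore says little about their members. In this list the estimate was higher in 3 and lower in 11, with a median log2 fold change of −0.13. Over all genes 9849 were higher and 9586 lower, with a median of 0.00197. Its most counted members, Nadk and Nadk2, encode NAD kinases, which turn NAD+ into NADP+ rather than supply it. They measured 105 ± 4.77 and 103 ± 18.9 CPM in controls and 104 ± 3.43 and 92.8 ± 15.9 CPM in PB pools (SD, n = 3). Nampt, a salvage gene named here as an exception, measured 49.3 ± 0.440 CPM in controls and 51.4 ± 7.04 CPM in PB pools. Of the 8 other NAD consumers, 0 were called or at an unadjusted p under 0.05 by either tool, and 3 estimates were higher. They included Parp1, the main DNA damage-induced ADP-ribosyltransferase, at 318 ± 9.78 and 309.9 ± 11.999 CPM, and Tnks2, a tankyrase, at 307 ± 4.63 and 307 ± 3.91 CPM. The smallest edgeR adjusted p in either list was 0.888.

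Neither did the regulators and substrates of the sirtuins. Of the 6 regulators of SIRT1, 0 were called or at an unadjusted p under 0.05 by edgeR or DESeq2. For this list and the next, the shares over all genes were 0.0154% called by edgeR, and 4.46% (edgeR) and 3.65% (DESeq2) at that p. Usp22, a deubiquitinase that stabilises SIRT1, measured 218 ± 6.19 CPM in controls and 227 ± 8.16 CPM in PB pools, and Ccar2, an inhibitor of SIRT1, 98.5 ± 1.04 and 99.8 ± 2.14 CPM (SD, n = 3). E2f1, singled out after its values were seen, was uneven among controls, at 8.98, 42.1 and 7.25 CPM against 37.5, 40.0 and 39.6 CPM in PB pools. Control 2 lay with the PB pools, and the log2 fold change of 1.00 ± 0.65 (SE) had an edgeR adjusted p of 0.888. Of the 11 nuclear substrates, 0 were called or at an unadjusted p under 0.05 by either tool, 7 estimates were higher and 4 lower. Foxo3, a transcription factor that restrains the activation of primordial follicles, measured 201 ± 13.5 and 204 ± 16.3 CPM, and Trp53 measured 99.5 ± 2.92 and 94.6 ± 5.52 CPM.

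Of the 8 SIRT2 substrates, 0 were called and 1 had an unadjusted p under 0.05 in edgeR and in DESeq2, against 4.46% and 3.65% of all genes with a p. This was Cdc20, an activator of the anaphase-promoting complex, at 80.9, 88.0 and 83.7 CPM in controls and 73.4, 78.1 and 75.1 CPM in PB pools. The pools of the groups did not overlap, as in 10.7% of all genes, and the log2 fold change of −0.16 ± 0.05 (SE) had an edgeR adjusted p of 0.888. Of the 15 mitochondrial substrates, 0 were called, and 1 had an unadjusted p under 0.05 in edgeR and 0 in DESeq2. This was Ppif, cyclophilin D of the permeability transition pore, at 24.3, 25.4 and 24.7 CPM in controls and 22.5, 22.3 and 23.3 CPM in PB pools. Its pools did not overlap, again as in 10.7% of all genes, and its log2 fold change was −0.13 ± 0.05 (SE; edgeR adjusted p = 0.888).

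The 11 classical deacetylase genes, whose products PB inhibits, had 0 called and 0 at an unadjusted p under 0.05 by edgeR or DESeq2, with a median log2 fold change of 0.02. Over all genes, edgeR called 0.0154%, and 4.46% (edgeR) and 3.65% (DESeq2) were at that p. Hdac1 measured 135 ± 1.65 CPM in controls and 134 ± 6.40 CPM in PB pools, and Hdac2 175 ± 2.33 and 177 ± 4.97 CPM (SD, n = 3). In Hdac5, singled out after its values were seen, PB 3 stood apart at 85.5 CPM against 10.1 to 14.2 CPM in the other 5 pools, and the log2 fold change of 1.44 ± 0.79 (SE) had an edgeR adjusted p of 0.888.

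**Figure D5:**
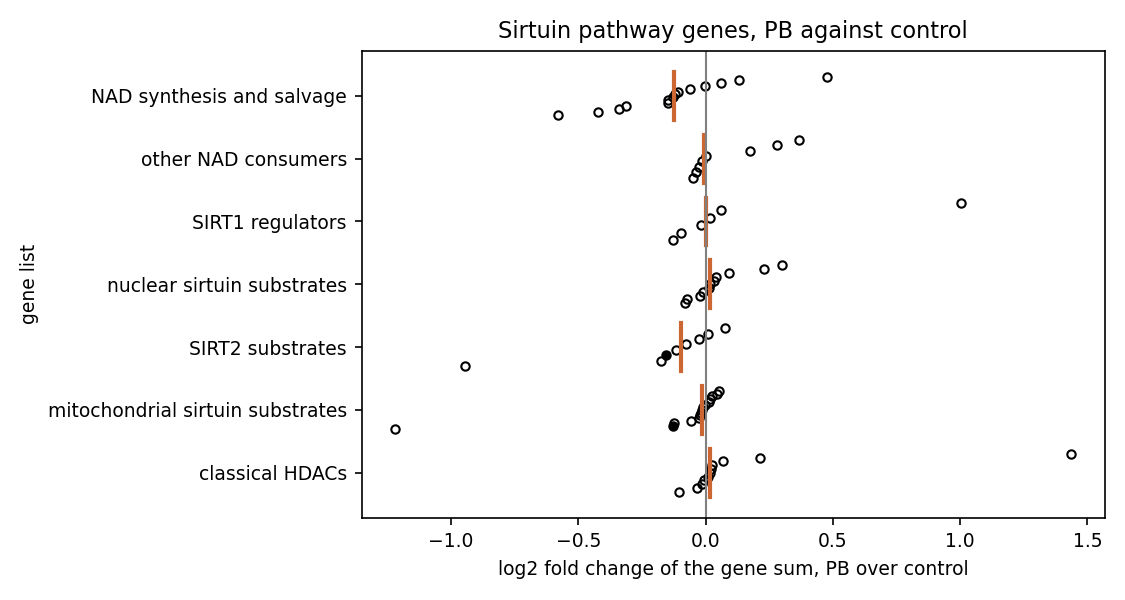
Log2 fold change of each tested member of 7 pathway lists, PB over control, from gene sums (edgeR, n = 3 pools per group); filled points have an unadjusted p under 0.05 and orange bars are list medians. The filled points are Cdc20 and Ppif, at −0.16 and −0.13, and list medians lie between −0.13 and 0.02.

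Genes beside the sirtuins were measured in the same pools. Psmd13, a proteasome subunit gene on the opposite strand whose start lies 84 bases from that of Sirt3, had a log2 fold change of −0.00409 ± 0.04 (SE). Ric8a overlaps the other end of Sirt3 by 69 bases on the opposite strand and had one of 0.01 ± 0.05. At the other loci the neighbours tested were Herc4 and Dnajc12 (Sirt1), Nfkbib (Sirt2), Pla2g1b (Sirt4), Gfod1 and Nol7 (Sirt5), BC025920 and Ankrd24 (Sirt6) and Pcyt2 (Sirt7). Their log2 fold changes ran from −0.25 (Pla2g1b) to 0.16 (Gfod1), and no edgeR adjusted p was below 0.888. Gm19897, Gm42007 and Mir6936, which overlap Sirt2, Sirt4 and Sirt7, had too few counts to be tested. The libraries were stranded, and whether strand was used in counting is not given in the sources used here.

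By the root mean square difference of log2 CPM, centred over the 6 pools, the genes most like each sirtuin among 14771 candidates were Dmxl2 for Sirt1 (0.0148), Kif3b for Sirt2 (0.0102), Pla2g15 for Sirt3 (0.0103), Plppr4 for Sirt4 (0.0684), Cilp for Sirt5 (0.0351), Mocs3 for Sirt6 (0.0369) and Ncapg for Sirt7 (0.0103). With 6 pools this is a description of the libraries.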

How the data were processed

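Per the labels, poly(A) RNA was made into stranded libraries. The submitters' processing notes list HISAT2 2.1.0, StringTie 1.3.5 and DESeq2 1.30.0 with mm10. The authors assembled and merged transcripts and deposited a raw count for each transcript and pool, which was analysed here. The authors' second table also holds, per the file headers, normalised counts (signal), log2 fold changes, Wald scores and p-values; only its gene names and positions were used. Of the transcripts, 1493 had no gene name (3.05% to 4.49% of counts). They stayed out of gene sums. Counts were summed per gene name and tested with edgeR 4.0.16 (TMM, filterByExpr with a minimum count of 10 and total of 15, quasi-likelihood test, Benjamini-Hochberg adjustment over all features); calls needed a fold change of 2 and FDR of 0.05. SE is the absolute log2 fold change divided by the square root of F. The gene tests and the usage test were tried on simulated counts with a spread near that of gene sums. That is far below the spread of transcripts, and the transcript test was not simulated. Transcript counts derive from assembler coverage shared among overlapping transcripts. The Wilson intervals (95%) of shares cover counting error only, not that sharing. The 95% intervals of log2 fold changes come from the quasi-likelihood fit and include the spread between pools. Alternatives were DESeq2 1.42.0, its size factors, no filter and a stricter one, a replicate block, each pool left out, RefSeq transcripts alone and assembled loci. The sirtuins, the pathway and marker lists and the tests were chosen with earlier results of these data known. Named were all sirtuins, their leading transcripts, those of 10% or more in either group or an unadjusted p under 0.05, pathway list members at that p or else the 2 with most counts, nearest neighbours and the most similar gene; exceptions are stated.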

Additional observations from a re-analysis of the deposited data

How the results depend on the processing

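Of all sirtuin genes and transcripts, 0 were called under any alternative run, but DESeq2 gave no p to NM_001127351.1 of Sirt3 and could not call it. Gene sums called over all genes were 3, and 11 with DESeq2, 0 with the replicate block, 8 with RefSeq transcripts alone, 5 with FDR alone and 3 to 9 with a pool left out. Transcripts called over all were 17, and 1169 with DESeq2, 39 with the stricter filter, 0 with the replicate block and 0 to 19 with a pool left out. Genes with altered usage were 114, and 233 with the stricter filter, 50 with the replicate block and 113 to 157 with a pool left out. The causes were not tested. Same-numbered control and PB pools share only a number (correlations of their deviations 0.0934, 0.147 and −0.0177), and not every pool correlated best with its own number. With a pool left out, log2 fold changes changed sign for Sirt1 (−0.051 to 0.18), Sirt4 (−0.11 to 0.18), Sirt7 (−0.066 to 0.11), NM_019812.3 (−0.084 to 0.20), NM_022432.4 (−0.028 to 0.093) and NM_153056.2 (−0.077 to 0.15). Chosen after seeing the data, the leading share difference without PB 2 was 49.3 points for Sirt3 and without control 1 was 7.71 points for Sirt4. The 3 pools a group limit the gene intervals to a 1.5-fold change, and the shares to an exact p of 0.1.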
